A study of Drosophila melanogaster with 14 samples.

Results

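miR-1002 and miR-968 are neighbouring microRNA hairpins of Drosophila melanogaster, and 3 of their mature arms are described here across embryonic development. They are listed as dme-miR-1002-5p, dme-miR-1002-3p and dme-miR-968-5p and are written below without the species prefix. They are 3 of the 466 arms in the deposited count table, and all 3 were among the 85 arms abundant enough to test. They were chosen by name as arms with no or almost no read at the first stage, so their low level there is a description and not a result. The libraries come from whole embryos at 7 stages, in time order stage 1 (160 min), stage 2 (300 min), stage 3 (530 min), stage 4 (645 min), stage 5 (930 min), stage 6 (1160 min) and stage 7 (1300 min), with 2 libraries each and 14 in all. The labels name neither the strain nor the point from which the minutes run, and no group carries a treatment or mutation. Small RNA was sequenced and reads were counted for each mature arm, that is, for the 5p side and the 3p side of each hairpin apart.

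A microRNA hairpin is cut from a longer primary transcript in the nucleus, and its loop is then removed by Dicer in the cytoplasm. One strand of the remaining duplex is usually kept by an Argonaute protein as the guide that pairs with target mRNAs, and the other, the passenger strand, is mostly degraded. The counts of the 5p and 3p arms of a hairpin therefore start as equals, and hairpins on the same primary transcript can differ in abundance through later processing and decay.

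In genome build dm6 the mir-968 hairpin lies on chromosome 2L from 13747748 to 13747839 and the mir-1002 hairpin from 13747609 to 13747697, both on the minus strand. Only 50 bases separate them, and mir-968 comes first in the direction of transcription. Both lie inside the single annotated exon of lncRNA:CR45913 (13745448 to 13747888, minus strand), which RefSeq also lists under the name pri-mir-1002_mir-968, a primary transcript of both hairpins. On the opposite strand the same interval falls in introns of TM9SF4 (13746952 to 13773905) and of lncRNA:CR44846 (13746952 to 13756402). No other annotated microRNA hairpin lies within 10000 bases. By their place on the minus strand, miR-968-5p is the mature arm from 13747801 to 13747824 and miR-968-3p that from 13747761 to 13747782. Likewise miR-1002-5p runs from 13747660 to 13747683 and miR-1002-3p from 13747621 to 13747642.

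**Figure D1:**
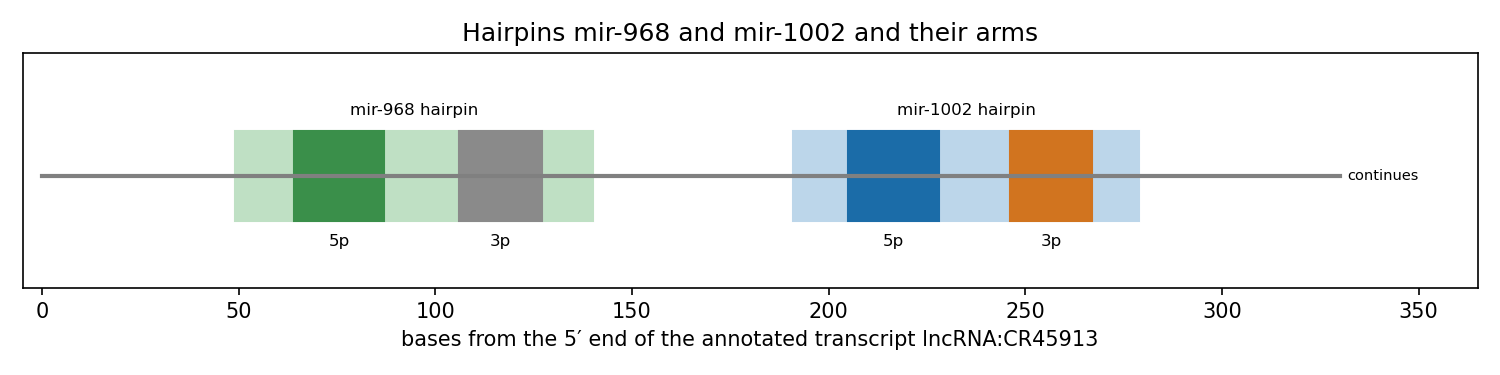
Map of the mir-968 and mir-1002 hairpins and their mature arms, drawn to scale along the annotated transcript lncRNA:CR45913 in bases from its 5′ end. The pale boxes are the hairpins and the dark boxes the arms; mir-968 comes first and a gap of 50 bases separates it from mir-1002.

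Total counts ran from 17462 to 72507 per library, so the members rest on few reads at the early stages. Levels are given as CPM, counts scaled to the library total and corrected by trimmed-mean (TMM) factors, and 1 count was worth 10.01 to 56.9 such CPM depending on the library. The 3 checked arms of the miR-309 cluster, switched on in the blastoderm, made up 65.4 to 67.2% of counts in stage 1 and 9.64 to 23.4% in stage 7. Arms of the larva to pupa group (let-7-5p, miR-100-5p and miR-125-5p) had 51 counts over all 14 libraries. The libraries of stages 4 and 7 differed most from each other (chi-square over arms 30.3 and 108 times its degrees of freedom, against 2.04 to 11 for the other stages). Whether the pair of libraries of a stage came from separate collections of embryos is not stated, so p-values describe the spread between these libraries, which may be technical. In whole embryos, fewer cells that make a microRNA and less of it per cell cannot be told apart.

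At the first stage the locus gave almost no reads. miR-1002-5p had 1 count in stage 1 replicate 1 and 0 in replicate 2, and miR-1002-3p and miR-968-5p had 0 in both, out of 60953 counts. A count of 0 there allows a share of up to 0.00492%. In stage 2 miR-1002-5p had 41 and 68 counts, miR-1002-3p 24 and 20, and miR-968-5p 4 and 13. Pooled over the stage, miR-1002-5p was 84.4 times as high in stage 2 as in stage 1, with a 95% counting interval of 14.8 to 3364. Against a floor of 3 counts over the pair of stage 1 libraries, the observed stage 2 level was 11.4-fold higher for miR-1002-3p and 4.39-fold higher for miR-968-5p. The stage 2 counts were taken as exact here, so these folds are not strict lower bounds. None of the folds carries a test, since stage 1 was used to choose the arms. The reads hold no molecular identifiers, so the interval covers counting error only, and the floors that of stage 1 only.

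Among all tested arms, 22 had at most 1 count in stage 1, and their median count in stage 2 was 1.5. By stage 2 count miR-1002-5p ranked 1, miR-1002-3p 3 and miR-968-5p 5 of these 22. Only 4 of the 22 had at least 20 counts in stage 2, among them both arms of miR-1002. Just outside that limit, miR-276a-3p, miR-281-3p, miR-982-5p and miR-993-3p had 2 counts each in stage 1.

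miR-1002-5p was the dominant product of the locus, with 3196 counts in all and rank 23 of 85 by mean CPM. In CPM, with replicate 1 named before replicate 2, it stood at 47.1 and 0 in stage 1, 1768 and 2524 in stage 2, 4220 and 2543 in stage 3 and 4867 and 4972 in stage 4. It then had 4382 and 6465 CPM in stage 5, 4739 and 15454 in stage 6, and 3093 and 5701 in stage 7. In CPM the libraries of stages 2, 3 and 4 did not overlap each other, and those of stage 4 lay within the range of stages 5 to 7. The gap between stages 2 and 3 was smaller than the CPM of 1 count (37.1 in stage 2 replicate 2 and 39.7 in stage 3 replicate 2). As a share of all counts these stages overlapped, at 0.2036% in stage 2 replicate 2 and 0.1815% in stage 3 replicate 2. Separation in CPM was common, at 42.4% of tested arms between stages 3 and 2 and 68.2% between stages 4 and 3. The order of stage means was 1, 2, 3, 7, 4, 5, 6, in which the libraries overlap between every pair of neighbours from stage 3 on. The mean of 10096 ± 7577 CPM in stage 6 (SD, n = 2) rests on replicate 2, in which the arm took 2.07% of all counts, against 0.630% in replicate 1.

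miR-968-5p was less abundant, with 922 counts in all and rank 38 of 85. Its libraries had 0 and 0 CPM in stage 1, 172.5 and 482.5 in stage 2, 1022 and 397.3 in stage 3, and 611.5 and 1384 in stage 4. In stage 5 it had 1761 and 1754 CPM, in stage 6 1723 and 3152, and in stage 7 1271 and 2644. The stage means followed the order 1, 2, 3, 4, 5, 7, 6, and in that order the libraries of neighbouring stages overlapped except between stages 1 and 2 and between stages 5 and 4 (as for 68.2% of tested arms).

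miR-1002-3p, the less abundant arm of its hairpin, had 398 counts and rank 53 of 85, and its course was unlike that of the others. It had 0 and 0 CPM in stage 1, 1035 and 742.2 in stage 2, but only 263.8 and 158.9 in stage 3. The libraries of stage 4 lay far apart, at 127.4 and 1231 CPM. It had 616.5 and 897.3 CPM in stage 5, 473.9 and 1114 in stage 6, and 410.4 and 554.6 in stage 7. In CPM its highest stage mean was in stage 2 (889 ± 207, SD, n = 2), where both 5p arms had their lowest mean after stage 1. That rank of stage 2 depends on the scaling. As a share of all counts, the mean of miR-1002-3p was 0.0666% in stage 2 and 0.0140% in stage 3. It was higher than in stage 2 in stage 4 (0.0868%), stage 5 (0.113%) and stage 6 (0.106%). The order of its stage means in CPM was 1, 3, 7, 4, 5, 6, 2, and from stage 7 on in that order the libraries of neighbouring stages overlapped.

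**Figure D2:**
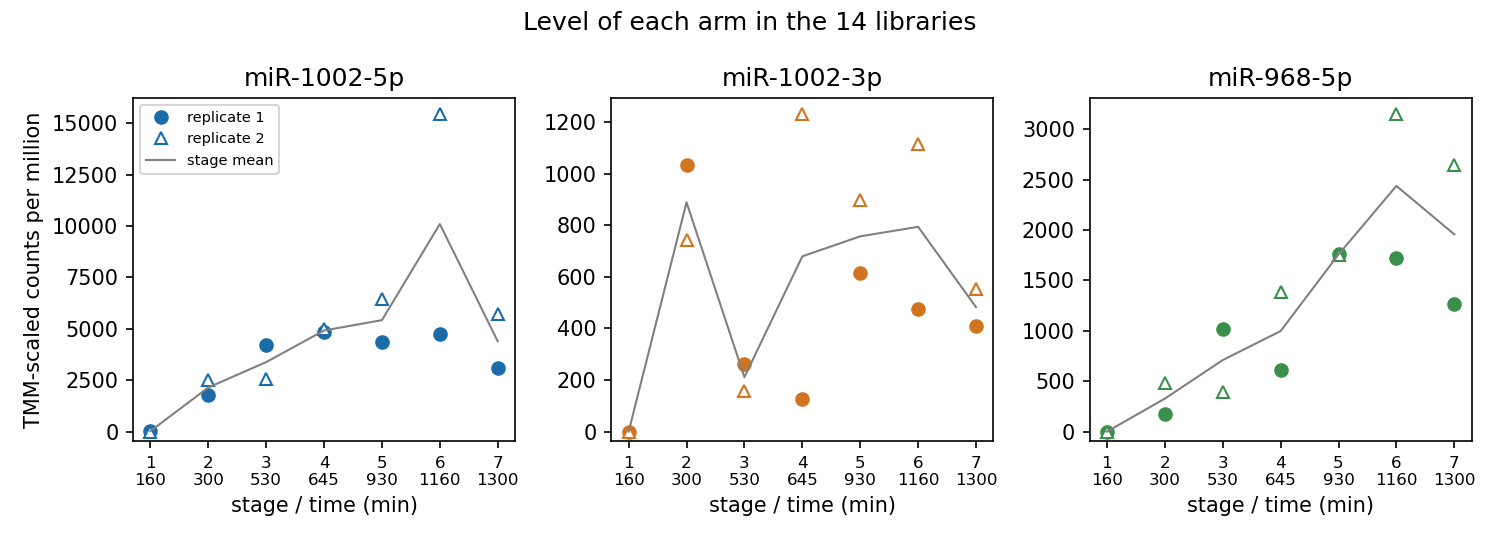
Level of miR-1002-5p, miR-1002-3p and miR-968-5p in TMM-scaled CPM (vertical axis, linear, a scale of its own for each arm) by stage and time in minutes. Filled circles and open triangles are the 2 libraries of a stage and the line joins stage means; stage 1 is at or near 0 for all 3 arms, miR-1002-3p lies lower in both stage 3 libraries than in both stage 2 libraries, and miR-1002-5p reaches 15454 in stage 6 replicate 2.

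Stage 1 was left out of every contrast, and the question was whether the arms still changed afterwards. Among stages 2 to 7, miR-1002-5p (F-test of edgeR's quasi-likelihood fit, adjusted p = 0.0195 by Benjamini-Hochberg) and miR-968-5p (adjusted p = 0.0114) differed, while miR-1002-3p did not pass (adjusted p = 0.284). Such a change was common, since 72.9% of the 85 tested arms passed the same test. Both calls were lost in some fits with 1 library left out, as listed below. Such a fit also redoes the arm filter, the scaling and the estimated spread for all other libraries. What a loss owes to this was not tested, and stage 1 replicate 2, among those listed, enters no contrast. Both calls also ended when only arms with a mean count of 50 or more were tested (adjusted p = 0.0926 for miR-1002-5p and 0.109 for miR-968-5p) or when stages 2 to 7 were fitted alone (0.114 and 0.0629). That of miR-1002-5p ended without stage 2 replicate 1 (adjusted p = 0.137), stage 2 replicate 2 (0.0964), stage 6 replicate 2 (0.103), stage 5 replicate 2 (0.0674), stage 1 replicate 2 (0.0619), stage 4 replicate 1 (0.0570) or stage 5 replicate 1 (0.0531). That of miR-968-5p ended without stage 2 replicate 1 (adjusted p = 0.167), stage 5 replicate 2 (0.0740), stage 5 replicate 1 (0.0630) or stage 2 replicate 2 (0.0585). miR-1002-3p passed without stage 4 replicate 1 (adjusted p = 0.0252) or without stage 4 replicate 2 (0.0154), the libraries in which it was so far apart.

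Both 5p arms had higher CPM in later embryos, a level relative to the other arms and not an amount per embryo. miR-968-5p averaged 2051 ± 700 CPM in stages 5 to 7 (SD, n = 6) and 519 ± 360 CPM in stages 2 and 3 (SD, n = 4), a log2 fold change of 2.05 ± 0.45 (SE; edgeR adjusted p = 0.000501). All 6 of its later libraries (1271 to 3152 CPM) lay above all 4 earlier ones (172.5 to 1022 CPM), as was the case for 38.8% of tested arms. miR-1002-5p averaged 6639 ± 4470 CPM in stages 5 to 7 and 2764 ± 1036 CPM in stages 2 and 3, a log2 fold change of 1.21 ± 0.36 (edgeR adjusted p = 0.00474), and its libraries overlapped. miR-1002-3p averaged 678 ± 272 CPM in stages 5 to 7 and 550 ± 411 CPM in stages 2 and 3, and its log2 fold change of 0.61 ± 0.52 did not pass (edgeR adjusted p = 0.277). In this comparison 83.5% of the 85 arms were called, 47.1% as higher and 36.5% as lower, so 2 of 3 members called is near the background.

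The rise of miR-968-5p passed under each alternative tried. Without stage 1 replicate 2 or without stage 4 replicate 1, both outside this comparison, the value of miR-1002-5p fell from 1.21 to 0.845. Leaving out a library also redoes the scaling of the others, and its part in the losses below was not tested. In edgeR the rise of miR-1002-5p was lost when any of 4 libraries was left out. With the first stage 2 library left out it was 0.73 (adjusted p = 0.140), and with the other stage 2 library left out 0.99 (adjusted p = 0.0628). Leaving out stage 5 replicate 2 gave 0.69 (adjusted p = 0.118). Leaving out stage 7 replicate 2 gave 0.75 (adjusted p = 0.0621). Without stage 6 replicate 2, its highest library, it was 0.97 (adjusted p = 0.0104). The call also ended when only arms with a mean count of 50 or more were tested, with the lowest value of any setting (0.56, adjusted p = 0.154), where miR-968-5p had 1.42 (adjusted p = 0.0145). The size of each value depends on the scaling. Relative to TMM, the median of all arms shifted by 0.62 on the log2 scale with DESeq2 size factors and by 0.92 with library size alone. Under these the value of miR-1002-5p was 1.82 and 2.14, that of miR-968-5p 2.65 and 2.97 and that of miR-1002-3p 1.25 and 1.55, and with library size alone miR-1002-3p passed (adjusted p = 0.0187). Of the arms called, 44 were higher and 22 lower with DESeq2 size factors, and 45 higher and 20 lower with library size alone, against 40 higher and 31 lower with TMM. The filter at a mean count of 50 went the other way, with a median shift of -0.63 and 13 arms higher and 18 lower.

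No single step after stage 2 passed the test for any member. From stage 2 to stage 3 the log2 fold changes were 0.66 ± 0.55 for miR-1002-5p, -2.04 ± 0.86 for miR-1002-3p (edgeR adjusted p = 0.213) and 1.10 ± 0.71 for miR-968-5p. In that step edgeR called 0% of the 85 arms, with 14 at an unadjusted p under 0.05, and DESeq2 called 2. For stage 4 against stage 3 they were 0.54 ± 0.53, 1.71 ± 0.83 (edgeR adjusted p = 0.114) and 0.50 ± 0.64 in the same order of arms, in a step where 35.3% of arms were called. The value of miR-1002-3p in this step was 2.49 and passed without stage 4 replicate 1 (adjusted p = 0.0139), and was -0.63 without stage 4 replicate 2. Stage 5 against stage 4, with 14.1% of arms called, gave 0.14 ± 0.52 for miR-1002-5p, 0.099 ± 0.72 for miR-1002-3p and 0.79 ± 0.61 for miR-968-5p.

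In the last steps too no member passed. For stage 6 against stage 5 the log2 fold changes were 0.90 ± 0.53 for miR-1002-5p, 0.11 ± 0.73 for miR-1002-3p and 0.48 ± 0.61 for miR-968-5p. For stage 7 against stage 6 all 3 estimates lay below 0, at -1.21 ± 0.53, -0.76 ± 0.73 and -0.33 ± 0.60 (edgeR adjusted p = 0.863 for each). Neither step had an arm called by edgeR (0% of 85) or by DESeq2, and 4 and 1 arms had an unadjusted p under 0.05. Without stage 6 replicate 2 the value of miR-1002-5p was -0.23 for stage 6 against stage 5 and 0.0028 for stage 7 against stage 6.

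**Figure D3:**
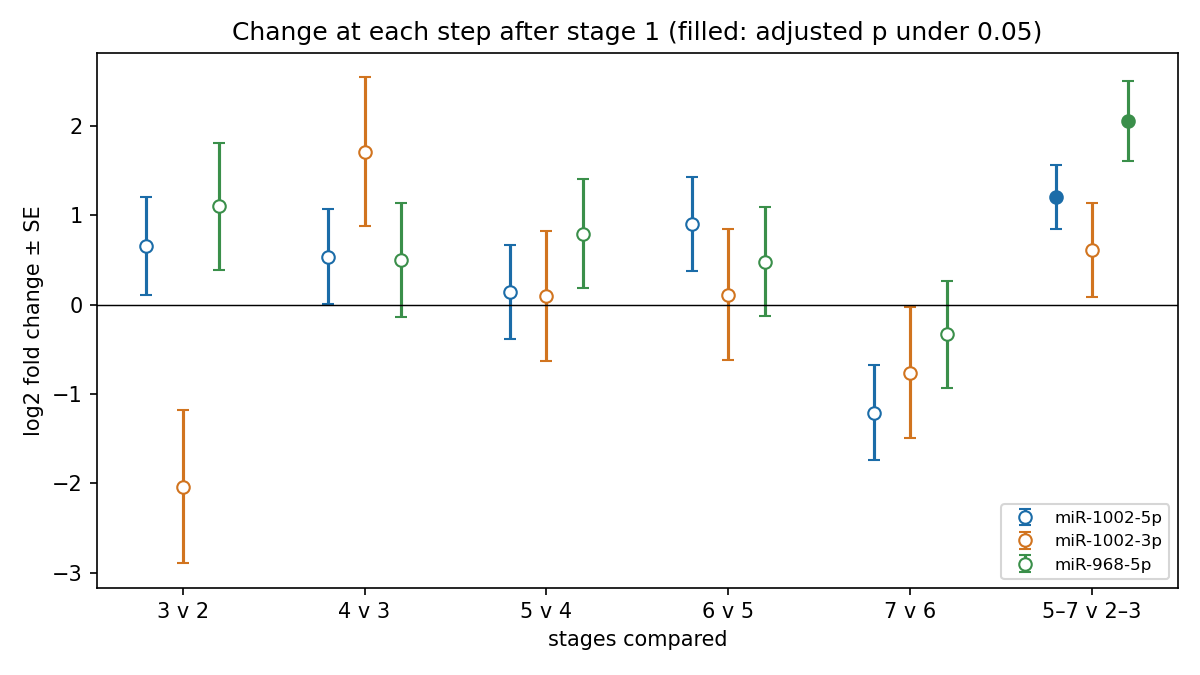
log2 fold change with its standard error (vertical axis) of each arm for each step after stage 2 and for stages 5 to 7 against stages 2 and 3 (horizontal axis), later over earlier. Filled points passed an adjusted p of 0.05; the only filled ones are miR-1002-5p and miR-968-5p in the broad comparison, at 1.21 and 2.05.

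The arms of miR-1002 were then compared within each library, which does not depend on the scaling. Over all libraries the 5p arm took 88.9% of the 3594 counts of the hairpin and the 3p arm 11.1%. The 3p share was highest in stage 2, where it was 36.9% of 65 counts in replicate 1 and 22.7% of 88 in replicate 2. In stage 3 it was 5.88% of 136 and 5.88% of 68 counts. Pooled, the 3p arm made up 28.8% in stage 2 (95% exact binomial interval 21.7 to 36.6%) and 5.88% in stage 3 (3.08 to 10.1%). The arm usage of all 15 hairpins with both arms tested was compared at each step, a comparison added after the counts had been seen. For stage 3 against stage 2 miR-1002 did not pass edgeR's quasi-likelihood test of arm usage (adjusted p = 0.0583), and no hairpin did (0%). With edgeR's likelihood ratio test in its place miR-1002 passed (adjusted p = 0.0444), as 1 of 2 hairpins. Unlike the quasi-likelihood test, that test was not checked on simulated counts. For stages 5 to 7 against stages 2 and 3 it did not pass (edgeR adjusted p = 0.525), in a comparison where 26.7% of the 15 hairpins were called.

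In stage 4 the 3p share was 2.55% of 196 counts in replicate 1 and 19.8% of 529 in replicate 2, with exact intervals that do not overlap (0.833 to 5.85% and 16.5 to 23.5%). From stage 5 on it stayed between 6.72 and 12.3% in all 6 libraries. The mean 5p share was 89.8% ± 2.28 in stages 5 to 7 and 84.4% ± 13.3 in stages 2 to 4 (SD, n = 6 each). The difference of 5.48 percentage points did not pass an exact two-sided permutation test over libraries (p = 0.355). In the later steps the arm usage of miR-1002 did not pass edgeR's test (adjusted p between 0.512 and 0.957), in which 13.3% of the 15 hairpins were called for stage 4 against stage 3 and 0% in each step after that.

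The other hairpins give a measure of how the share of the less abundant arm varies between libraries in general. Its median over those with at least 20 counts was 8.10 and 9.22% in the libraries of stage 2, 4.69 and 6.96% in stage 3, and 9.73 and 7.85% in stage 4. The stage 2 share was above the stage 3 share in 10 of the 12 other hairpins that could be compared, and in stage 4 the share was higher in replicate 2 in 8 of 12. The part of this general difference in the shares of miR-1002 was not tested.

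**Figure D4:**
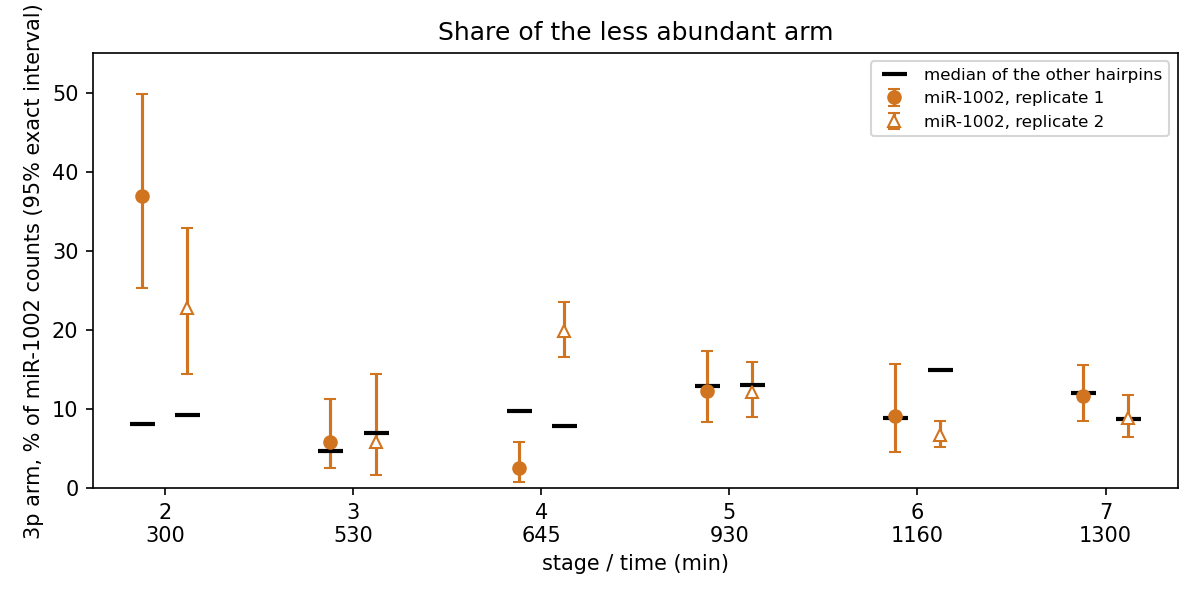
Share of the 3p arm in the counts of miR-1002 (vertical axis, percent, with exact 95% binomial intervals) in each library by stage and time in minutes; black bars are the median share of the less abundant arm of the other hairpins in the same library. Both stage 2 libraries and stage 4 replicate 2 lie farthest above their bars, at 36.9, 22.7 and 19.8%, and stage 4 replicate 1 lies at 2.55%.

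The passenger arm of the neighbouring hairpin, miR-968-3p, was too rare to test, with 20 counts in all libraries. Of these, 14 fell in stage 4 replicate 2 and 3 in stage 2 (2 and 1), the libraries with the highest 3p share of miR-1002. It had 1 count in each library of stage 5 and in stage 6 replicate 2, and 0 in the other 8 libraries.

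Hairpins of a shared transcript were next compared with each other. The ratio of miR-1002 (both arms) to miR-968-5p within a library was 16.2 and 6.77 in stage 2, 4.39 and 6.80 in stage 3, and 8.17 and 4.48 in stage 4. It was 2.84 and 4.20 in stage 5, 3.02 and 5.26 in stage 6, and 2.76 and 2.37 in stage 7. miR-1002 thus exceeded miR-968-5p in each of these 12 libraries. Pooled by stage, the ratio was 9.0 (95% counting interval 5.44 to 15.9) in stage 2 and 2.52 (2.21 to 2.86) in stage 7. Between them it did not fall steadily, at 4.98 in stage 3, 5.11 in stage 4, 3.54 in stage 5 and 4.86 (4.20 to 5.63) in stage 6. The mean log2 ratio was 1.71 ± 0.43 in stages 5 to 7 and 2.76 ± 0.64 in stages 2 to 4 (SD, n = 6 each), a difference of -1.05 that passed an exact two-sided permutation test (p = 0.00866, where 924 splits allow no p below 0.00216). That test treats the libraries as independent, although libraries of 1 stage share it.

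The lower ratio in later embryos did not hang on 1 library, as leaving out each of the 12 gave -1.19 to -0.83 (exact permutation p of 0.00433 to 0.0173). It was -0.95 with the 5p arm of miR-1002 alone (exact permutation p = 0.0108), and with the rarer 3p arm alone -1.21 and not past the threshold (exact permutation p = 0.128). The groups still overlapped, since stage 6 replicate 2 (log2 ratio 2.39) lay above stage 3 replicate 1 (2.12) and stage 4 replicate 2 (2.16).

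**Figure D5:**
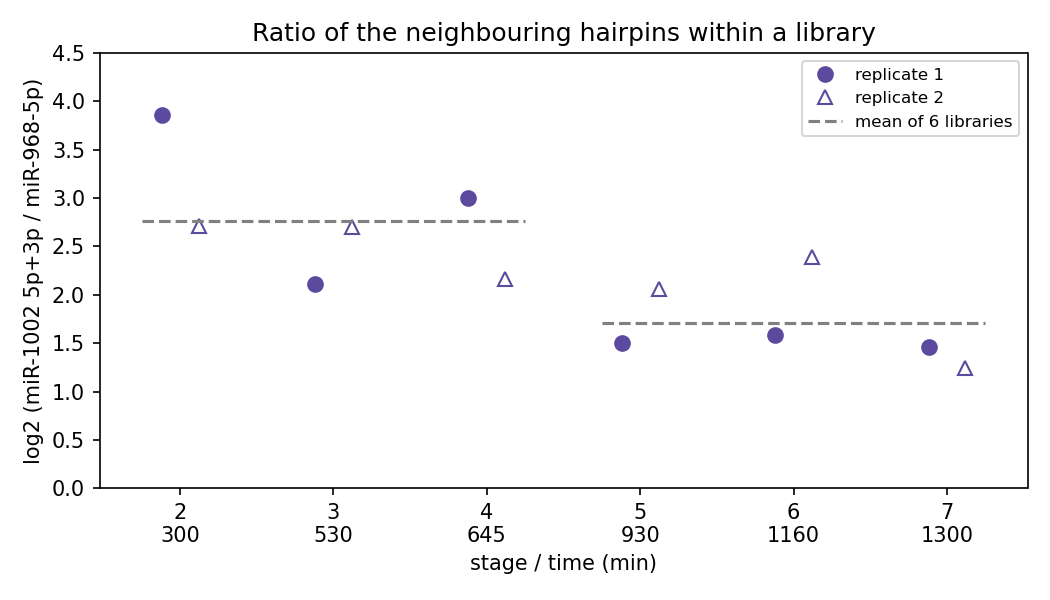
log2 ratio of miR-1002 (5p and 3p counts summed) to miR-968-5p within each library (vertical axis) by stage and time in minutes. Dashed lines are the means of the 6 libraries of stages 2 to 4 (2.76) and of stages 5 to 7 (1.71).

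Despite the shift in ratio the dominant arms varied together from library to library. Over the 12 libraries of stages 2 to 7, the log2 CPM of miR-1002-5p and miR-968-5p had a Pearson correlation of 0.84 (Spearman 0.83), and 0.75 without the 2 libraries farthest from the median of miR-1002-5p (stage 2 replicate 1 and stage 6 replicate 2). Of 83 other arms with a mean of at least 100 CPM, none had a higher Pearson correlation with miR-1002-5p than miR-968-5p. A value of 0.84 was not rare, however. Over all pairs of these 84 arms in the same libraries the median was -0.015 and the 95th percentile 0.916. The points behind each correlation share stage, scaling factor and depth, and the values are descriptive. Within a stage, the library with more miR-1002-5p also had more miR-968-5p in 5 of 6 stages. Stage 5 was the exception, with log2 differences (replicate 2 minus replicate 1) of 0.56 for miR-1002-5p and -0.006 for miR-968-5p. The agreement in stage 4 was slight, since miR-1002-5p differed by only 0.031 there, beside 1.12 for miR-968-5p. How often other pairs of arms agree in this way was not counted. In stage 6 all 3 members were higher in replicate 2, by 1.70 for miR-1002-5p, 1.16 for miR-1002-3p and 0.86 for miR-968-5p on the log2 scale.

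The arms of miR-1002 also differed in the same direction within 5 of 6 stages, with stage 2 as the exception. Stage 4 counts among the 5 only by sign, as its log2 difference was 0.031 for the 5p arm and 2.89 for the 3p arm. miR-1002-5p and miR-1002-3p had a Pearson correlation of 0.24 over the same 12 libraries (0.31 without the same pair), at rank 42 of 83, and miR-1002-3p and miR-968-5p of 0.27 (-0.10 without stage 3 replicate 2 and stage 4 replicate 1). The low counts of miR-1002-3p, between 4 and 105 in these libraries, limit these values.

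Likeness to other arms was ranked over all 14 libraries. The ranking includes stage 1, where the members are low by choice, so any arm low in stage 1 scores high, and the names describe that shared low level at least in part. Among non-members, the first 5 for miR-1002-5p were miR-263a-5p, known from sensory bristles (Pearson correlation of log2 CPM 0.95, and 0.55 over the 12 libraries after stage 1), miR-276a-3p (0.91 and 0.64), miR-283-5p (0.90 and 0.29), miR-315-5p, known from the nervous system (0.86 and 0.55), and miR-14-5p (0.81 and 0.50). For miR-968-5p they were miR-263a-5p (0.93 and 0.75), miR-276a-3p (0.93 and 0.77), miR-283-5p (0.88 and 0.51), miR-12-5p (0.87 and 0.79) and miR-315-5p (0.86 and 0.56). For miR-1002-3p they were bantam-5p (0.80 and 0.54), miR-14-5p (0.77 and 0.39), miR-276a-3p (0.76 and 0.21), miR-1-3p of muscle (0.75 and 0.29) and miR-184-3p (0.74 and 0.49). The correlation was lower over the 12 libraries than over all 14 for each arm named.

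Last, the members were set beside the hairpins of the same block of miRBase numbers, miR-954 to miR-1017. Without the members these have 118 arms in the table, of which 16 could be tested. In stages 5 to 7 against stages 2 and 3, 8 of the 16 were higher, 4 lower and 4 did not pass, with a median log2 fold change of 0.82, against 40 higher, 31 lower and a median of 0.53 for all 85 arms (in edgeR). Setting the arms with no count in 1 group at their bound (1 of the 16, 7 of the 85) left both medians as they were. The 3 largest rises were arms with almost no read in stages 2 and 3. miR-956-3p had 2818 counts in stages 5 to 7 and 1 in stages 2 and 3, miR-957-3p 317 and 0, and miR-958-3p 100 and 1. The members miR-1002-5p had 2279 and 301 and miR-968-5p 722 and 58. The 3 largest falls were miR-995-3p (log2 fold change -2.38 ± 0.26), miR-998-5p (-1.33 ± 0.53) and miR-996-3p (-1.27 ± 0.37).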

How the data were processed

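Small RNA libraries of 14 whole-embryo samples were used, 2 for each of 7 stages. The values deposited by the authors are unnormalized read counts for each mature arm; library totals differ, from 17462 to 72507. The submitters' processing notes name Bowtie, HTSeq and build dm6. Versions, microRNA annotation, strand setting and the treatment of reads that match several places: not given in the sources used here. Per the labels' protocols, 1 ng of total RNA per sample was amplified over 15 PCR cycles. Columns were matched to libraries by title, and replicates were numbered in accession order, so nothing was paired.

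Counts were fitted in R 4.3.3 with edgeR 4.0.16: filterByExpr by stage (85 of 466 arms, holding at least 99.4% of each library), TMM factors, 1 coefficient per stage over all 14 libraries, 7 residual degrees of freedom, quasi-likelihood tests and Benjamini-Hochberg adjustment over the 85 arms at 0.05. The standard error was derived from the fold change and the F statistic. log2 CPM used a prior count of 2. Arm usage was tested with diffSpliceDGE. Within-library shares used libraries with at least 5 counts, log2 ratios a pseudocount of 0.5, intervals are exact binomial at 95%, and permutation tests were exact (scipy 1.17.1). DESeq2 1.42.0 was an alternative.

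The code was checked in 20 draws of simulated counts. For stages 5 to 7 against stages 2 and 3 over 85 arms it called 42.5% of arms changed 2-fold, 99.7% of those changed 8-fold and 1.85% of those left alone. In these draws most arms were left alone, changes went up or down at random and all arms shared a common spread. In the data 83.5% of arms were called, so these rates do not cover uncertainty in the scaling. For arm usage in stage 3 against stage 2 over 15 hairpins the quasi-likelihood test called 87% of those changed 8-fold and 3% of those left alone.

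The members, lists, comparisons and alternatives were chosen with earlier results of these data known. Arms were named by rule: the members, the 5 arms most correlated with each among arms of at least 100 CPM, hairpins within 10000 bases, and the 3 largest called rises and falls of the list miR-954 to miR-1017. miR-968-3p was named as the remaining arm of the locus. A planned grouping by shared seed was left out, since mature sequences were not used here. Positions came from the Ensembl annotation of dm6 and the RefSeq gene table of the same assembly. Plots used matplotlib 3.10.9 under Python 3.11.15.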

Additional observations from a re-analysis of the deposited data

Results flagged for a closer look

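miR-1002-5p in stage 6 replicate 2 lay apart from the other libraries of stages 5 to 7, at 15454 CPM (TMM scale), against 3093 to 6465 CPM in the other 5. On the linear CPM scale the gap to the nearest library was 0.727 of the whole range, above the 0.625 that marks an outlying value among 6. The mark holds for that scale only, and the 6 libraries come from different stages. This was 1 of 10 groups examined. Chance marks about 1 in 20 when all values of a group are alike in source, which is not so here. In the same library miR-968-5p had 3152 CPM and miR-1002-3p 1114 CPM, the highest of the 6 for each, without passing that limit.

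miR-968-3p, an arm too rare for the tests, had 14 of its 20 counts in stage 4 replicate 2, above the floor of 3 counts. In that library miR-1002-3p also had its highest count of 105.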

How the results depend on the processing

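Of 200 values of the members under settings other than leaving out 1 library, 186 kept their side of the threshold and, where called, their direction; the others follow, and where no reason is given the cause was not tested. Keeping arms whose mean count reached 50, which tests fewer arms and shifted the median of all of them by -0.63 on the log2 scale in stages 5 to 7 against stages 2 and 3, miR-1002-3p could not be tested, miR-1002-5p in stages 5 to 7 against stages 2 and 3 had a log2 fold change of 0.56 (edgeR adjusted p = 0.154), and among stages 2 to 7 the adjusted p was 0.0926 for miR-1002-5p and 0.109 for miR-968-5p. With stages 2 to 7 alone, which has fewer libraries, these were 0.114 and 0.0629. With library size alone miR-1002-3p passed in stages 5 to 7 against stages 2 and 3 (1.55) and, for stage 4 against stage 3, miR-1002-5p (1.43) and miR-1002-3p (2.64) passed. miR-1002-3p also passed in that step in DESeq2 (2.27) and with miR-286-3p removed (2.12). Without both stage 4 replicate 1 and stage 7 replicate 2 it passed there (2.48), for stage 3 against stage 2 (-2.43) and among stages 2 to 7 (adjusted p = 0.00762). The log2 ratio with the 3p arm alone was -1.21 and did not pass.

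Without 1 library at a time, miR-1002-5p in stages 5 to 7 against stages 2 and 3 ran from 0.69 to 1.56 and miR-1002-3p for stage 4 against stage 3 from -0.63 to 2.49. The adjusted p among stages 2 to 7 ran from 0.00171 to 0.137 for miR-1002-5p, from 0.0154 to 0.601 for miR-1002-3p and from 0.00219 to 0.167 for miR-968-5p. The number of arms called changed by more than 1.5 times in some settings. Under the filter at 50 it was 31 in stages 5 to 7 against stages 2 and 3 (71 in the fit reported), 29 among stages 2 to 7 (62) and 7 for stage 5 against stage 4 (12), with fewer arms tested. For stage 3 against stage 2 it was 7 without stage 4 replicate 1 and stage 7 replicate 2, 2 in DESeq2 and 1 without a filter or without stage 7 replicate 1 (0). Stage 4 against stage 3 had 16 when stage 4 replicate 2 was dropped (30). Stage 5 against stage 4 had 2 when stage 4 replicate 1 was dropped and 1 when stage 5 replicate 1 was (12). In the last steps no setting called more than 1 arm. Thinning every library to the shallowest and leaving out stage 4, both chosen after seeing the data, changed no call of a member. No paired analysis was possible because the labels carry no replicate numbers. Depth limits miR-1002-3p and miR-968-3p most: 1 count of the shallowest library was worth 43.1 CPM.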
